A study of Mus musculus with 12 samples.

Results

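Cells take up glucose, split it in glycolysis to pyruvate, and either reduce the pyruvate to lactate or pass it to the mitochondria, while the pentose phosphate pathway branches off early and yields NADPH and ribose for nucleotides. The genes described here are 32 genes of these routes, chosen by name and not by their values: 2 glucose transporters, 9 genes of upper and 5 of lower glycolysis, 4 of lactate production and export, 5 of the pyruvate dehydrogenase step and 7 of the pentose phosphate pathway. All 32 were among the 13016 genes of the expression table. Of these, 31 reached at least 1 RPKM in at least 4 libraries and were tested with 10690 genes in all. RPKM is the number of reads scaled to transcript length and to the size of the library, so that levels of different genes can be set side by side. The lactate exporter gene Slc16a3 missed that level, with 0 RPKM in 6 of 12 libraries and a highest value of 2.45 RPKM.

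The series measured messenger RNA in early thymic progenitors, cells that have just entered the thymus and begin T-cell development there, of C57BL/6 mice. Each of 12 libraries was made from 100 cells sorted by flow cytometry, with full-length amplification of the messenger RNA. Control cells carried loxP-flanked alleles of Ezh2, the methyltransferase of a Polycomb complex, and of Runx1, a blood transcription factor (Ezh2 fl/fl Runx1 fl/fl). The dKO cells carried these alleles together with Rag1Cre, a recombinase that is active where Rag1 is expressed, in lymphoid progenitors. The dKO_Flt3ITD cells carried, in addition to both, 1 Flt3 ITD allele, an internal tandem duplication that keeps this cytokine receptor active. Each genotype had 4 libraries, and all 3 groups shared the loxP-flanked alleles. The labels do not give the animals' age, nor whether a group's libraries stem from different animals, and p-values therefore rest on the spread among the libraries alone, which may be technical.

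Several facts of the libraries bear on what follows. Whole reads recovered from the table totalled 12924981 to 32763597 per library. The mean level of Ezh2, with its SD over 4 libraries, was 39.8 ± 5.83 RPKM in control, 22.6 ± 5.87 in the dKO group and 16.4 ± 5.59 in the dKO_Flt3ITD group, and that of Runx1 was 21.2 ± 4.57, 46.4 ± 11.1 and 47.5 ± 11.8 RPKM. Neither gene passed in limma, with lowest adjusted p of 0.0949 and 0.124, and values over the whole gene do not check the deletions. Library dKO 1 stood apart with 2635 RPKM of the beta-globin gene Beta-s, an erythroid marker, against at most 1.18 RPKM in the other 11, and control 1 correlated least with the rest, 0.786 on average. The 9 measured early thymic progenitor and T-lineage markers summed to 607 to 722 RPKM in control libraries, 343 to 424 in dKO and 257 to 329 in dKO_Flt3ITD. Of these, Tcf7 fell in both mutant groups and Lck in dKO_Flt3ITD against control. Against control, 7 of the 9 fold changes were negative in dKO and 8 in dKO_Flt3ITD. Kit, a defining marker of these progenitors, was at 38.2 to 78.8 RPKM in all 12. Flt3 read 53.3 to 110 RPKM in control, 12.9 to 38.7 in dKO and 7.73 to 70.1 in dKO_Flt3ITD. The 9 macrophage markers found, of 11 listed, summed to 19.2 to 66.8, 47.8 to 141 and 50.4 to 156 RPKM, and 2 of the 7 tested, Emr1 and Spic, rose in dKO_Flt3ITD against control, while Vcam1 was at 0 in all 4 dKO_Flt3ITD libraries. The 6 granulocyte and monocyte markers found, of 12 listed, summed to 114 to 407, 129 to 313 and 98.4 to 1429 RPKM. Elane was at 0 in all 4 controls. Mpo read 66.0, 129, 230 and 161 RPKM in control and 56.5, 7.71, 12.9 and 721 in dKO_Flt3ITD. Of the 5 tested, Ctsg was called up in dKO_Flt3ITD against control, where 3 fold changes were positive and 2 negative. The 14 dissociation stress genes summed to 255 to 903, 195 to 336 and 71.7 to 172 RPKM, and Fos, Jun and Zfp36 fell there. What part these cells and this stress response had in the values of the metabolic genes was not tested. In such bulk samples, fewer cells of a type and less RNA per cell cannot be told apart.

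Hypoxia-inducible factors bind the letters ACGTG and MYC proteins the letters CACGTG, which contain ACGTG, and both factors are known to drive glycolytic genes in many cell types. RefSeq promoter windows on GRCm38.p6, from 250 bases before to 50 bases after a gene's start, were matched for 31 of the 32 genes, all but Slc2a3, with 44 windows. ACGTG on either strand was in 18 of the 44 windows (40.9%), against 19.6% of all 32851 windows. By gene it was in 16 of 31 (51.6%), against 21.8% of 27025 genes. CACGTG was in 3 of 44 windows (6.82%), those of Ldha, Pfkm and Slc16a1, against 7.15% of all windows. The windows of these genes had a median GC content of 61.0%, against 52.7% of all windows, and whether the share of ACGTG goes with base composition was not tested. A match is a description of letters, not a bound site or a cause.

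The stretches below are from Slc2a1, Hk2 and Pdk3, whose values are given by library further on, and from 3 abundant glycolytic genes, Pgk1, Pgam1 and Ldha. None of these genes was called in limma. Rpe, whose values are also given by library further on, had no ACGTG on either strand. They are written 5′ to 3′ on the gene's strand and lie before the RefSeq start, with each ACGTG or its reverse complement CACGT in capitals. In Ldha both overlap as CACGTG. The stretches of Slc2a1, Pdk3 and Ldha are shorter because they lie partly or wholly within the GENCODE gene. Both matches of Hk1 lie in the 50 bases after the RefSeq start and are not shown.
Slc2a1, chr4:119108697-119108725, plus strand: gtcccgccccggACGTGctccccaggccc
Hk2, chr6:82774472-82774536, minus strand: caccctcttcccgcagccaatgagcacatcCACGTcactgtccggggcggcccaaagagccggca
Pdk3, chrX:93832187-93832215, minus strand: cgcgcgccgcgtACGTGcggcggcagatc
Pgk1, chrX:106186920-106186984, plus strand: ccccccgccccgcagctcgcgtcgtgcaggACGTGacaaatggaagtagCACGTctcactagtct
Pgam1, chr19:41911727-41911791, plus strand: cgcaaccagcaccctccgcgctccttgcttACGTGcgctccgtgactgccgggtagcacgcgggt
Ldha, chr7:46845744-46845772, plus strand: cggcccagcctaCACGTGggttcccgcac
The first base of the capitals lies 36 bases before the RefSeq start in Slc2a1, 52 in Hk2, 53 in Pdk3, 150 in Pgk1 (the second match 131), 114 in Pgam1 and 48 in Ldha. Further matches before the start, not shown, begin at 226 bases in Hk2 and at 145 (CACGTG) and 34 bases in Ldha. Whether these letters go with the levels or fold changes of the genes was not tested.

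The pathway was abundantly expressed. The 31 tested genes had a median level of 24.2 RPKM over the 12 libraries, against 10.2 RPKM for all 10690 genes, and 9 of them (29.0%) had a mean over 100 RPKM, against 8.94% of all genes. Gapdh, the dehydrogenase that opens lower glycolysis (chromosome 6, 125161715 to 125166467, GRCm38), had the highest mean, 497 RPKM. Its 4 control libraries read 418, 375, 501.2 and 317 RPKM, the dKO libraries 879, 375, 524 and 461, and the dKO_Flt3ITD libraries 849, 450, 345 and 475. One library of each mutant group, dKO 1 and dKO_Flt3ITD 1, was far above the others, which lay within or near the control range. These 2 libraries also had the largest sums of RPKM over all genes, 829421 and 1071040, against 515638 to 666626 in the other 10. As a share of its library's sum Gapdh was 0.106% in dKO 1 and 0.0793% in dKO_Flt3ITD 1, beside 0.0531% to 0.081% in control.

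Aldoa, the aldolase that splits the six-carbon sugar, came next. It read 199.6, 441, 415 and 384 RPKM in control, 319, 184, 446 and 450 in dKO, and 601, 343, 280.5 and 511 in dKO_Flt3ITD. Taldo1, the transaldolase of the non-oxidative pentose phosphate branch, read 99.8, 315, 360 and 292 RPKM in control, 298, 249.98, 504 and 428 in dKO, and 701, 392, 369 and 190 in dKO_Flt3ITD. Ldha, the muscle-type subunit of lactate dehydrogenase, read 200.2, 327, 386 and 224 RPKM in control, 175, 141, 264 and 205 in dKO, and 325, 85.1, 185 and 444 in dKO_Flt3ITD. In all 3 genes the groups overlapped, and the spread within a group was as wide as the distance between groups. Eno1, the enolase gene of the same linear chain as Gapdh, read only 0.10 to 6.43 RPKM. Of the 50-base stretches of Eno1 transcripts 49.5% also occur in transcripts of other genes, 48.4% in Eno1b, a near-identical copy that is not analysed here. The shares were 68.0% for Pgk1, 58.4% for Gapdh and 41.5% for Pgam1, 30.3% for Pdhb, 24.5% for Gpi1, 23.7% for Pkm and 21.0% for Ldhb, at most 18.7% for the others, and 0% for Hk2, Slc2a3, Pdk1, Pdk3 and Tkt. How reads that match several genes were treated is not given in the sources used here, so levels of Eno1, Pgk1, Gapdh and Pgam1 are uncertain, and to a lesser degree those of Pdhb, Gpi1, Pkm and Ldhb.

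**Figure D1:**
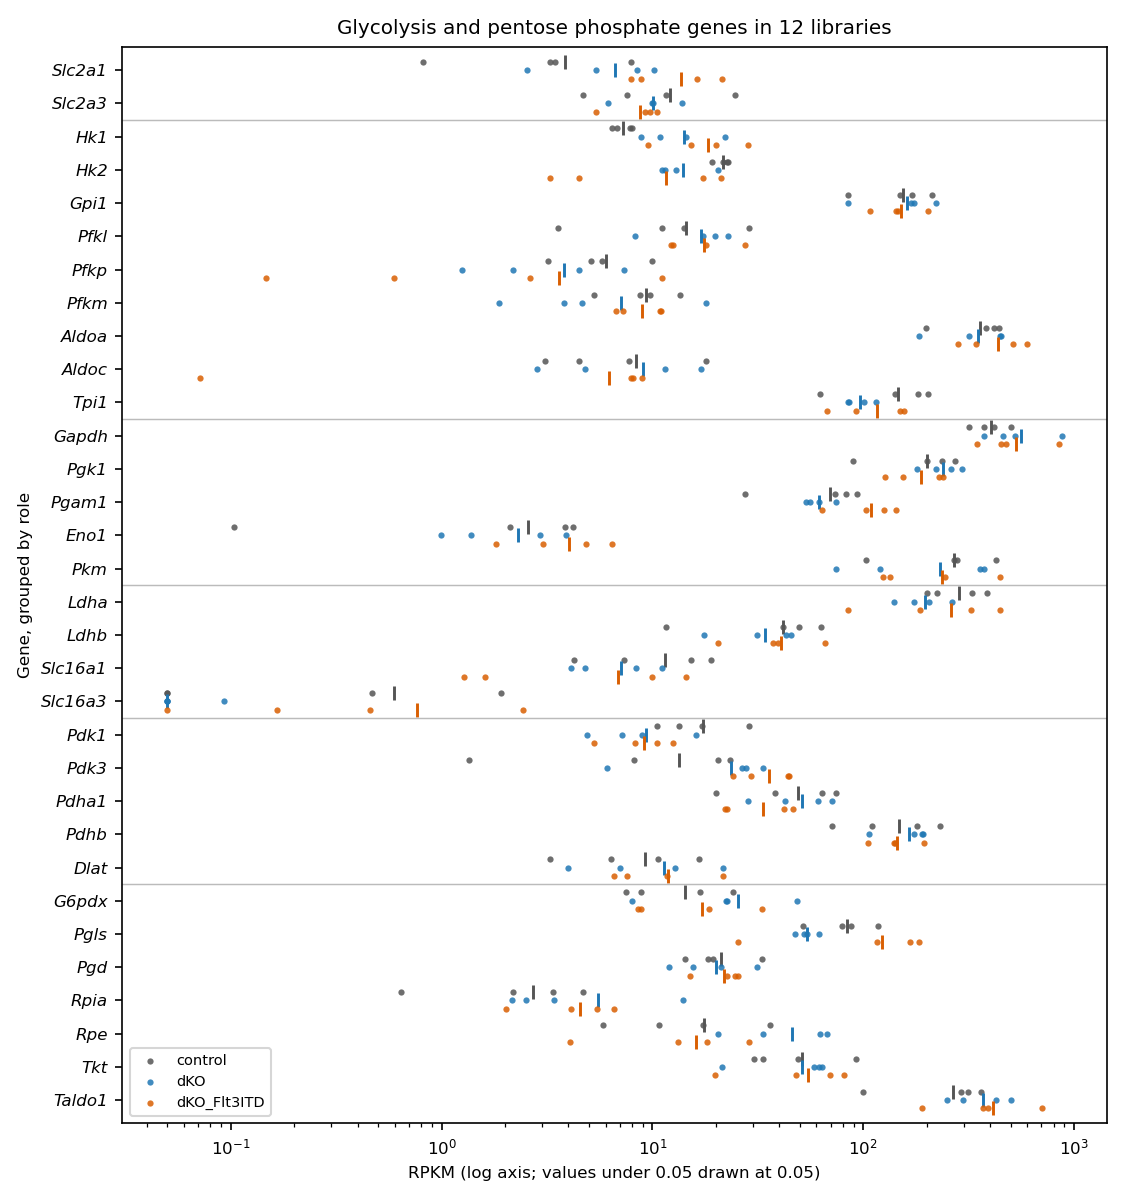
Level of each of the 32 genes in RPKM (log axis) in 12 libraries, with genes grouped by role. Points are libraries, short vertical bars are group means over 4 libraries, and values under 0.05 are drawn at 0.05. In nearly every row the 3 groups are mixed, and Hk1, Slc2a1 and Pdk3 are the rows where the dKO_Flt3ITD points lie to the right of the control points, a separation that is lost when libraries are rescaled to the same sum of RPKM.

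No gene of the pathway was called in any comparison. In dKO against control, limma called 0 of 31 at an adjusted p under 0.05, against 109 of all 10690 genes (1.02%). At an unadjusted p under 0.05 there was 1 of 31, against 9.18% of all genes, and the lowest adjusted p was 0.416. In dKO_Flt3ITD against dKO, limma called 0 of 31 and 0 of all genes (0%), with 1 of 31 at an unadjusted p under 0.05, against 7.71% of all, and a lowest adjusted p of 0.543. In dKO_Flt3ITD against control, limma called 0 of 31, against 160 of all genes (1.5%), with 4 at an unadjusted p under 0.05, against 13.4% of all, and a lowest adjusted p of 0.177. Voom on the recovered reads also called 0 of 31 in each comparison, and 5, 0 and 27 of all genes in the same order. Both comparisons with control use the same 4 control libraries.

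Fold changes of both signs were mixed. Their log2 fold changes were positive for 17 and negative for 14 in dKO against control, 19 and 12 in dKO_Flt3ITD against dKO, and 18 and 13 in dKO_Flt3ITD against control. The medians were 0.02, 0.05 and 0.07, beside 0.01, 0.0042 and 0.0021 for all genes. When each library was rescaled to the same sum of RPKM, the split turned to 13 and 18, 14 and 17, and 12 and 19, and the median of all genes moved to −0.11, −0.09 and −0.21, so signs here are relative to that scale. The calls over all genes in dKO_Flt3ITD against control then split 84 up and 84 down, in place of 106 and 54. The 95% intervals of the single genes were 2.08 log2 units wide at the median and 1.39 to 3.12 over the 31 genes. Differences of up to about 1 log2 unit in most of these genes were therefore not resolved by these intervals, which are not adjusted for the number of genes. Larger fold changes also missed the adjusted threshold, up to 1.78 in Pdk3 in dKO_Flt3ITD against control (limma adjusted p 0.230). A p that misses the threshold does not show equal levels.

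**Figure D2:**
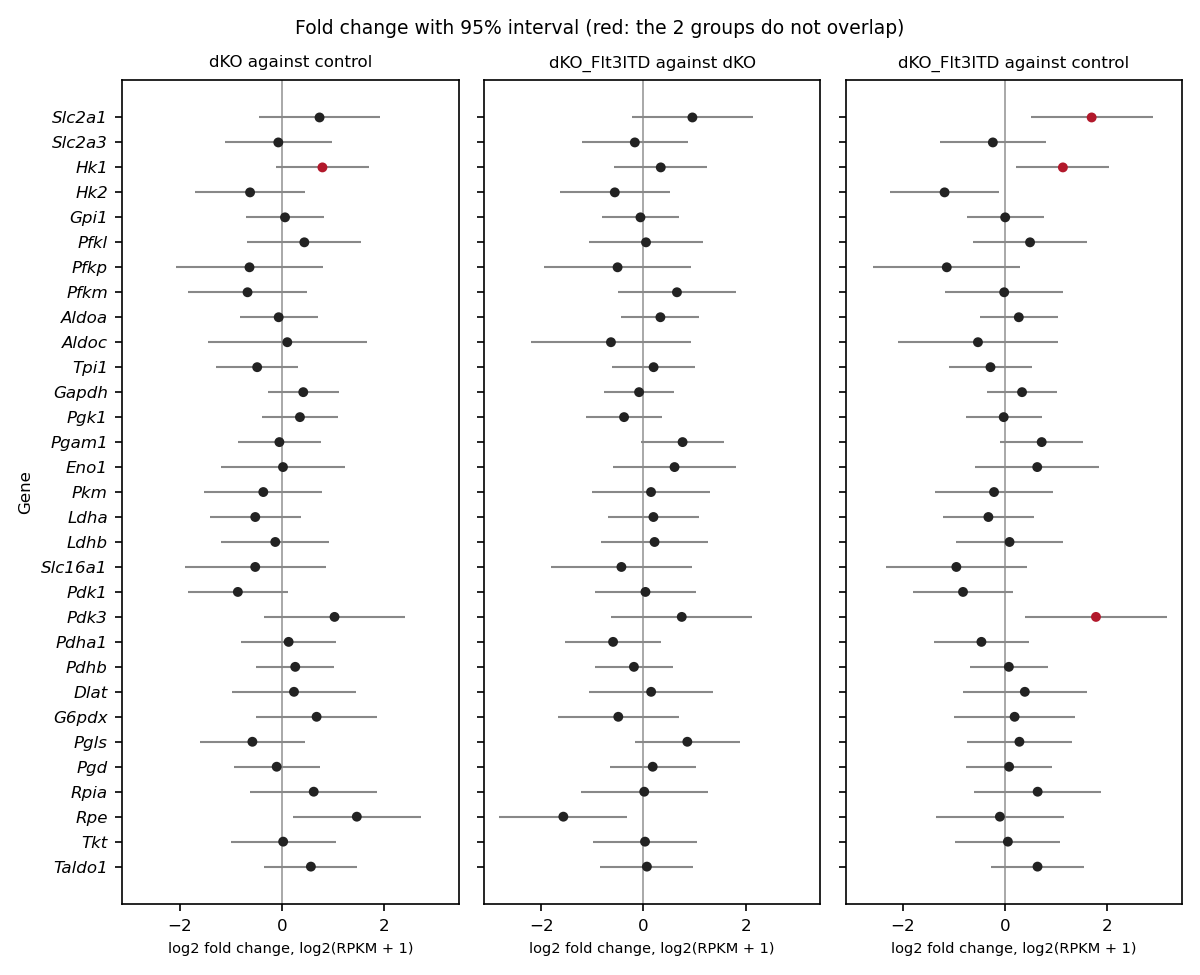
Log2 fold change of the 31 tested genes on the log2(RPKM + 1) scale, with 95% intervals from limma, in the 3 comparisons. Red points mark genes whose 2 groups do not overlap in RPKM as deposited, 1 in dKO against control, none in dKO_Flt3ITD against dKO and 3 in dKO_Flt3ITD against control; most intervals cross 0.

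Glucose enters through Slc2a1, the broadly expressed transporter, and Slc2a3, a transporter of high affinity. Slc2a1 (chromosome 4, 119108711 to 119137983, GRCm38) read 7.90, 0.82, 3.46 and 3.28 RPKM in control, 8.43, 10.2, 2.55 and 5.39 in dKO, and 16.3, 8.82, 7.90 and 21.4 in dKO_Flt3ITD. All 4 dKO_Flt3ITD libraries were above the 4 controls, but the lowest of them, at 7.904, and control 1, at 7.9, were level to the second decimal. Rescaled to the same sum, control 1 stood at 10.23 for Slc2a1, above 3 of the 4 dKO_Flt3ITD libraries at 10.18, 9.25 and 7.92, and the groups overlapped. The dKO libraries overlapped both. Against control the log2 fold change of Slc2a1 in dKO_Flt3ITD was 1.69 (SE 0.56, 95% interval 0.50 to 2.89), with a limma adjusted p of 0.177. In that comparison 3 of 31 genes (9.68%), Slc2a1, Hk1 and Pdk3, had no overlap between groups, against 7.67% of all genes. Rescaled to the same sum, none of these 3 was without overlap and Hk2 was, 1 of 31, against 7.59% of all genes. Slc2a3 stood at 12.2 ± 8.87 RPKM (SD, n = 4) in control libraries, 10.03 ± 3.13 in dKO and 8.73 ± 2.29 in dKO_Flt3ITD, with overlap throughout.

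Hexokinases trap glucose in the cell by phosphorylation, Hk1 being the housekeeping form and Hk2 the form induced in growing and glycolytic cells. Hk1 (chromosome 10, 62268855 to 62379908) read 7.83, 6.79, 7.99 and 6.43 RPKM in control, 8.84, 14.5, 10.8 and 22.1 in dKO, and 20.1, 15.2, 9.53 and 28.5 in dKO_Flt3ITD. The controls lay close together and every library of both mutant groups was above them in RPKM as deposited. With each library rescaled to the same sum of RPKM, control 1 came to 10.1 for Hk1, above dKO 1 at 7.12 and dKO_Flt3ITD 3 at 9.54, so that the groups overlapped in both comparisons. The log2 fold change of Hk1 was 0.79 (SE 0.43, 95% interval −0.12 to 1.71) in dKO and 1.13 (SE 0.43, 95% interval 0.22 to 2.04) in dKO_Flt3ITD, with limma adjusted p of 0.654 and 0.249. Hk1 was the 1 gene of 31 (3.23%) without overlap in dKO against control, against 6.3% of all genes. Of its 50-base stretches 1.64% are shared with the antisense gene Hk1os, and whether the counting used strand is not given in the sources used here.

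Hk2 (chromosome 6, 82725025 to 82774454) had lower means in the mutant groups. It read 22.8, 21.6, 22.5 and 19.2 RPKM in control, 11.5, 20.6, 11.1 and 12.9 in dKO, and 21.2, 3.27, 4.50 and 17.3 in dKO_Flt3ITD. In each mutant group 1 library lay within the control range, dKO 2 and dKO_Flt3ITD 1, and dKO_Flt3ITD 4 lay just under it, while the other 5 were lower. Rescaled to the same sum, all 4 dKO_Flt3ITD libraries were below the controls for Hk2, the highest at 20.1 against the lowest control at 21.4. The log2 fold change of Hk2 was −0.62 (95% interval −1.70 to 0.45) in dKO and −1.19 (95% interval −2.26 to −0.11) in dKO_Flt3ITD against control, with limma adjusted p of 0.838 and 0.315.

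Within each library the balance of the pair was then read as a share, which does not depend on how the library is scaled. The share of Hk2 in the summed RPKM of Hk1 and Hk2 was 74.4%, 76.1%, 73.8% and 74.9% in control, 56.5%, 58.7%, 50.7% and 36.8% in dKO, and 51.4%, 17.7%, 32.1% and 37.8% in dKO_Flt3ITD. All 8 mutant libraries lay under the 4 controls, whose spread was 0.964 percentage points (SD, n = 4), while dKO and dKO_Flt3ITD overlapped. The sum of both genes was 28.8 ± 2.36 RPKM in control libraries, 28.1 ± 8.03 in dKO and 29.9 ± 16.0 in dKO_Flt3ITD, with the means close and the mutant libraries more scattered. Hk3, a hexokinase of myeloid cells that is not in the pair, was at 0 in the 4 controls, at 0 to 3.35 RPKM in dKO and at 0.05 to 18.5 RPKM in dKO_Flt3ITD, highest in dKO_Flt3ITD 4, the library with the most granulocyte and monocyte messenger. What part other cells had in the share was not tested. The share carries no test here, since the pairs were described after results of these data were known.

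A further 7 shares of paralogues were computed in the same way, 2 of them, Pfkp and Pfkm, within the same phosphofructokinase family. Slc2a3 made up 59.6%, 90.2%, 57.4% and 88.3% of the RPKM of the 2 glucose transporters in control, 62.2%, 49.5%, 70.8% and 65.2% in dKO, and 39.3%, 37.9%, 55.2% and 30.2% in dKO_Flt3ITD. The dKO_Flt3ITD libraries were all under the controls, and dKO overlapped both. Pdk3 made up 4.46% to 66.2% of the RPKM of Pdk1 and Pdk3 in control, 55.4% to 78.8% in dKO and 69.6% to 89.3% in dKO_Flt3ITD, with the last above all controls. Pdk2, a further kinase gene outside the pair, ran from 0 to 17.5 RPKM in control. Of 8 shares, 1 separated dKO from control, 0 separated dKO_Flt3ITD from dKO and 3 separated dKO_Flt3ITD from control. For the RPKM of single genes, groups did not overlap in 6.3%, 4.28% and 7.67% of all tested genes. That is another measure, and no such rate was computed for shares of other gene pairs, so the 2 cannot be compared. The other 5 shares, of phosphofructokinase, aldolase, lactate dehydrogenase and lactate export genes, overlapped in all 3 comparisons.

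**Figure D3:**
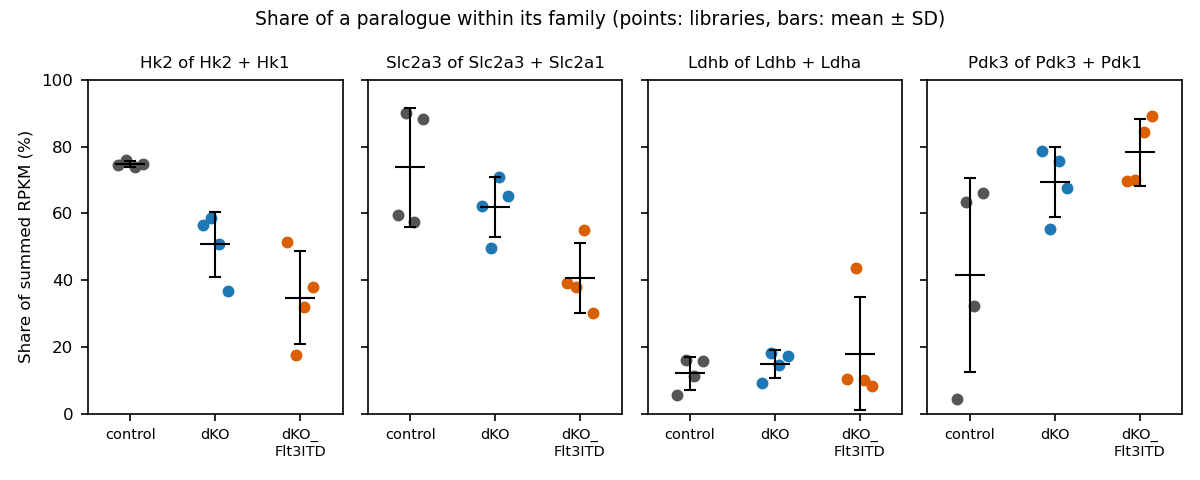
Share of one paralogue in the summed RPKM of its pair, in percent, for hexokinase, glucose transporter, lactate dehydrogenase and pyruvate dehydrogenase kinase genes. Points are libraries, bars are the mean ± SD of 4 libraries; the Hk2 share of both mutant groups lies below the tight control cluster near 74.8%, and the Ldhb share does not separate the groups.

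The other genes of upper glycolysis showed no separation. Gpi1, the phosphoglucose isomerase, was at 154 ± 53.6 RPKM (SD, n = 4) in control libraries, 162 ± 56.8 in dKO and 150.4 ± 39.4 in dKO_Flt3ITD. Of the phosphofructokinase genes, which encode subunits of the pathway's main control enzyme, Pfkl was highest with 14.4 ± 10.5, 17.1 ± 6.29 and 17.5 ± 7.15 RPKM. Pfkm had 9.32 ± 3.41, 7.07 ± 7.35 and 8.96 ± 2.31 RPKM. Pfkp ran from 0.15 RPKM in dKO_Flt3ITD 1 to 11.06 in dKO_Flt3ITD 4, so that 1 group spanned the whole range. Tpi1, the triosephosphate isomerase, had 147 ± 62.1, 96.4 ± 14.3 and 116 ± 43.8 RPKM, and Aldoc, the aldolase form known from brain, had 8.34 ± 6.71, 9.04 ± 6.47 and 6.24 ± 4.14 RPKM.

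In lower glycolysis the largest difference was in Pgam1, a phosphoglycerate mutase. It was at 69.4 ± 29.0 RPKM (SD, n = 4) in control libraries, 61.5 ± 9.45 in dKO and 109 ± 34.1 in dKO_Flt3ITD. The log2 fold change of Pgam1 was 0.77 (95% interval −0.04 to 1.57) against dKO and 0.72 (95% interval −0.09 to 1.53) against control, with limma adjusted p of 0.677 and 0.436. Pgk1, the first ATP-forming kinase of the chain, had 199.7 ± 79.3, 239.7 ± 48.9 and 187 ± 55.3 RPKM. Pkm, the pyruvate kinase that ends it, had 269.6 ± 132, 232 ± 156 and 237 ± 149 RPKM, with single libraries between 74.6 and 446 RPKM.

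For lactate, the 3 tested genes had negative log2 fold changes in dKO against control, from −0.52 in Slc16a1 and Ldha to −0.13 in Ldhb, each with an interval across 0. Ldha had 284 ± 87.4 RPKM (SD, n = 4) in control libraries, 196 ± 52.3 in dKO and 259.9 ± 157 in dKO_Flt3ITD. Ldhb, the heart-type subunit, had 41.5 ± 21.8, 34.3 ± 12.8 and 40.7 ± 18.6 RPKM, so that Ldha carried most of the messenger in all groups. Slc16a1, a proton-linked transporter of lactate and pyruvate, had 11.5 ± 6.84, 7.08 ± 3.23 and 6.84 ± 6.499 RPKM. Slc16a3, the exporter typical of strongly glycolytic cells, was listed at 0 in control 2 and 4, in dKO 2, 3 and 4 and in dKO_Flt3ITD 1.

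Pyruvate dehydrogenase turns pyruvate into acetyl-CoA, and its kinases switch it off. Pdk3 (chromosome X, 93764607 to 93832201, GRCm38) read 1.35, 23.3, 8.20 and 20.5 RPKM in control, 26.7, 6.11, 27.8 and 33.6 in dKO, and 24.1, 29.3, 44.7 and 44.2 in dKO_Flt3ITD. The dKO_Flt3ITD libraries were all above the controls, by less than 1 RPKM between the nearest 2 libraries, and dKO overlapped both groups. Rescaled to the same sum, dKO_Flt3ITD 1 came to 15.02 for Pdk3, below control 2 at 24.6 and control 4 at 23.0, and this separation was lost too. The log2 fold change of Pdk3 against control was 1.78 (SE 0.66, 95% interval 0.39 to 3.16) in dKO_Flt3ITD, with a limma adjusted p of 0.230. Without control 1, the library with 1.35 RPKM, it was 1.07, with a limma adjusted p of 0.398. Pdk1, another of the kinase genes and a known target of hypoxia-inducible factor, stood lower in both mutant groups, at 17.5 ± 8.04 RPKM (SD, n = 4) in control libraries, 9.28 ± 4.81 in dKO and 9.17 ± 3.12 in dKO_Flt3ITD. Its groups overlapped, and its limma adjusted p against control were 0.651 and 0.471. The subunit genes of the enzyme overlapped in all comparisons, Pdha1 with 49.2 ± 24.7, 51.0 ± 19.1 and 33.3 ± 12.8 RPKM, Pdhb with 148 ± 71.4, 166 ± 40.2 and 144.9 ± 36.2 RPKM, and Dlat with 9.22 ± 5.80, 11.3 ± 7.73 and 11.9 ± 6.87 RPKM.

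The pentose phosphate genes differed most in Rpe, the epimerase that interconverts pentose phosphates. Rpe (chromosome 1, 66700831 to 66719805) read 5.82, 17.5, 36.0 and 10.8 RPKM in control, 33.6, 20.5, 62.2 and 67.2 in dKO, and 13.3, 18.2, 4.08 and 28.7 in dKO_Flt3ITD. The dKO libraries were mostly higher, with overlap on both sides. Rpe had the lowest p of the 31 genes in 2 comparisons, with a log2 fold change of 1.47 (95% interval 0.21 to 2.72) in dKO against control and −1.57 (95% interval −2.82 to −0.32) in dKO_Flt3ITD against dKO. The limma adjusted p were 0.416 and 0.543. Both comparisons use the same dKO libraries, and dKO_Flt3ITD against control gave −0.10 (95% interval −1.35 to 1.15). Of the 50-base stretches of Rpe transcripts 18.7% are shared with the neighbouring gene model Kansl1l.

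In the oxidative branch, which yields NADPH, G6pdx, its first and rate-limiting dehydrogenase, had 14.3 ± 7.67 RPKM (SD, n = 4) in control libraries, 25.4 ± 16.8 in dKO and 17.2 ± 11.5 in dKO_Flt3ITD. Pgls, the lactonase, had 84.1 ± 27.2, 54.0 ± 5.99 and 123 ± 71.3 RPKM, with 1 dKO_Flt3ITD library at 25.4 RPKM and the other 3 from 117 to 184. Pgd, the second dehydrogenase, was nearly level, with 21.3 ± 8.14, 20.02 ± 8.41 and 21.9 ± 4.68 RPKM. In the non-oxidative branch Tkt, the transketolase, had 51.4 ± 28.8, 51.3 ± 20.05 and 54.5 ± 26.9 RPKM. Taldo1 had 267 ± 115, 369.9 ± 117 and 413 ± 212 RPKM, and Rpia, the ribose phosphate isomerase, had 2.72 ± 1.72, 5.51 ± 5.67 and 4.55 ± 1.96 RPKM. None of these 6 genes separated any pair of groups.

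Libraries of one genotype differed in the median level of these genes. Measured from each gene's mean over the 12 libraries on the log2(RPKM + 1) scale, the median deviation of the 31 genes was −0.63 in control 1 and 0.48 in control 3, −0.36 in dKO 1 and 0.29 in dKO 4, and −0.28 in dKO_Flt3ITD 2 and 0.48 in dKO_Flt3ITD 4. Over all tested genes the library medians ran from −0.05 to 0.07. A median over so many genes varies less than one over 31, and sets of like size and level were not compared. Control 1 held the lowest value of 11 of the 31 genes (of all genes 17.3% were lowest there), and dKO_Flt3ITD 4 the highest of 7 (of all genes 7.65%). The 32 genes together summed to 1748 RPKM in control 1 and 4089 in dKO_Flt3ITD 1, but these sums were 0.339% and 0.382% of all RPKM in the library. That share was lowest in dKO 1, at 0.332%, and highest in dKO_Flt3ITD 4, at 0.613%. Each genotype thus had libraries above and below the mean. Library dKO_Flt3ITD 4 also had the highest sum of granulocyte and monocyte markers, 1429 RPKM, and its part in the level of the pathway was not tested.

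Levels of most of the abundant glycolytic genes were correlated across libraries. For the 8 glycolytic and lactate genes with a mean over 50 RPKM, Gpi1, Aldoa, Tpi1, Gapdh, Pgk1, Pgam1, Pkm and Ldha, the 28 pairwise correlations over 12 libraries had a median of 0.60. It was 0.17 for all 465 pairs of the 31 genes, and 0.34 for all pairs of the 956 genes with a mean over 100 RPKM. That last cutoff is higher than the 50 RPKM of the 8 genes. Gapdh and Pgam1 took less part. Within the 8 genes, Gapdh ran from −0.11 with Pkm to 0.39 with Aldoa, and Pgam1 from 0.05 with Tpi1 to 0.49 with Ldha. All genes of a library share its depth and amplification, which differ between libraries, and abundant genes are measured with less noise. The within-group spread was 0.75 log2 units at the median of the 31 genes, beside 0.72 for all genes. For those over 100 RPKM it was 0.55, beside 0.49.

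**Figure D4:**
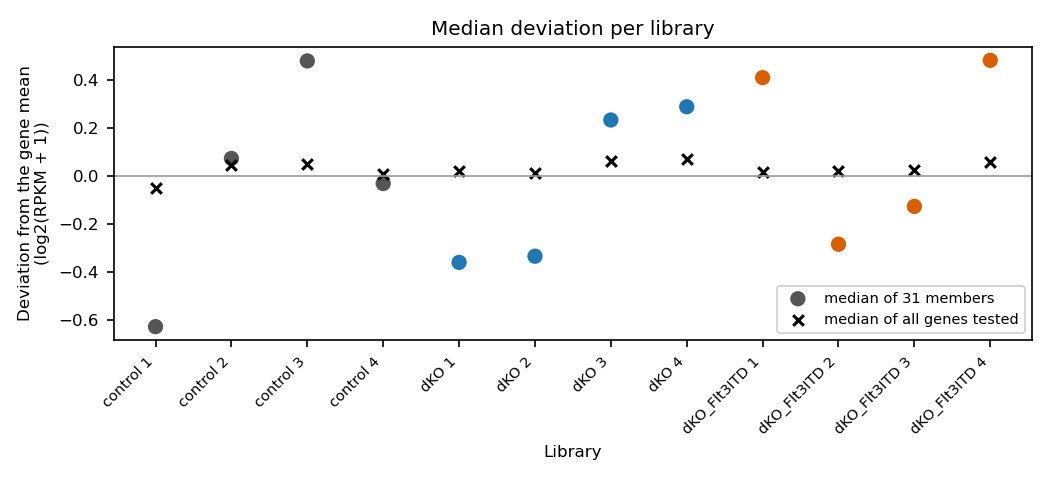
Median deviation of the 31 tested genes from their mean over 12 libraries, in log2(RPKM + 1), for each library (filled circles, coloured by genotype), with the same median over all tested genes (crosses). The circles run from −0.63 in control 1 to 0.48 in dKO_Flt3ITD 4 and lie on both sides of 0 in every genotype, while the crosses stay between −0.05 and 0.07.

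Genes next to the pathway were read from lists chosen by function. Of the 14 tested side-branch and regulator genes of glycolysis, 1 passed in any comparison. Pgp, a phosphatase that removes phosphoglycolate and other toxic by-products of glycolysis, read 0.82, 0.39, 2.80 and 1.21 RPKM in control, 0.35, 3.63, 2.88 and 0 in dKO, and 9.57, 6.60, 24.8 and 8.94 in dKO_Flt3ITD. Every dKO_Flt3ITD library was above all other libraries. Over all tested genes, dKO_Flt3ITD did not overlap dKO in 4.28% and control in 7.67%. Pgp rose against control with a log2 fold change of 2.48 (SE 0.60) and a limma adjusted p of 0.0488, while against dKO the fold change was 2.43 with an adjusted p of 0.261. The call stood at the threshold and was lost in each of the 8 fits without 1 library, with limma adjusted p from 0.0583 to 0.137, and with voom at 0.258.

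No other list of neighbouring genes held a call. Of 7 tested further sugar and monocarboxylate transporters, Slc16a6, of the monocarboxylate transporter family, had the smallest p, with 2.501 ± 1.74 RPKM (SD, n = 4) in control and 0.14 ± 0.15 in dKO_Flt3ITD and a limma adjusted p of 0.225. Of 7 tested genes of pyruvate entry into mitochondria, Pdp1, a phosphatase that switches pyruvate dehydrogenase back on, had 8.03 ± 3.39 RPKM in control libraries, 2.33 ± 1.397 in dKO and 3.26 ± 2.14 in dKO_Flt3ITD, with limma adjusted p against control of 0.405 and 0.389. Mpc2, a subunit of the mitochondrial pyruvate carrier, had 59.0 ± 23.7, 75.3 ± 19.6 and 96.6 ± 29.9 RPKM, and Dld, the third enzyme of the dehydrogenase, 74.6 ± 28.6, 82.5 ± 43.6 and 42.8 ± 28.6 RPKM. Neither passed, with a lowest limma adjusted p of 0.371 for Mpc2 and 0.447 for Dld.

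Ribose made by the pentose phosphate pathway is activated for nucleotide synthesis by Prps1, 1 of 9 tested genes beside that pathway. Prps1 read 46.5, 52.1, 65.5 and 46.6 RPKM in control, 19.6, 36.7, 29.8 and 27.0 in dKO, and 16.8, 20.3, 26.3 and 42.6 in dKO_Flt3ITD. All 8 mutant libraries were below the 4 controls. Over all tested genes, groups did not overlap in 6.3% in dKO against control and in 7.67% in dKO_Flt3ITD against control. Prps1 is named because it had the smallest p of its list in both. The log2 fold change of Prps1 was −0.89 in dKO and −1.03 in dKO_Flt3ITD, with limma adjusted p of 0.405 and 0.196. Its relative Prps2 had 28.9 ± 5.18, 29.4 ± 12.4 and 19.8 ± 5.06 RPKM, with overlap in each comparison.

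Among 21 tested regulators, the MYC, hypoxia and sugar-sensing genes, 10 had positive and 11 negative log2 fold changes in dKO against control, and 11 and 10 in the other comparisons. Hif1a, the oxygen-regulated subunit of hypoxia-inducible factor, had 8.09 ± 6.16 RPKM (SD, n = 4) in control libraries, 18.2 ± 5.92 in dKO and 12.9 ± 5.70 in dKO_Flt3ITD, with a limma adjusted p of 0.394 in dKO. Akt1, a kinase of growth factor signalling, had 13.9 ± 2.51 RPKM in dKO and 22.8 ± 3.55 in dKO_Flt3ITD, with a limma adjusted p of 0.688. The groups did not overlap for Akt1 in RPKM as deposited, and overlapped when rescaled to the same sum. Of 11 tested hypoxia response genes outside glycolysis, 0 passed in limma and 4, 9 and 7 had positive fold changes in dKO against control, dKO_Flt3ITD against dKO and dKO_Flt3ITD against control. Ndrg1, a stress and hypoxia response gene, had 8.10 ± 2.11, 3.49 ± 2.09 and 10.7 ± 4.19 RPKM, with a limma adjusted p of 0.467 in dKO against control and 0.436 in dKO_Flt3ITD against dKO. Higd1a, a mitochondrial hypoxia response gene, had 61.4 ± 14.02, 64.0 ± 11.8 and 109 ± 55.0 RPKM.

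Downstream, limma called 0 of 21 tested citrate cycle genes in each comparison, with 14 of 21 fold changes positive in dKO against control, 5 in dKO_Flt3ITD against dKO and 8 in dKO_Flt3ITD against control. Idh2, the mitochondrial NADP-dependent isocitrate dehydrogenase, had 219 ± 46.5 RPKM (SD, n = 4) in control libraries, 131 ± 64.0 in dKO and 189.9 ± 45.4 in dKO_Flt3ITD, and Cs, the citrate synthase, 44.7 ± 7.68, 45.1 ± 5.03 and 28.9 ± 9.16 RPKM. Suclg2, a subunit of succinyl-CoA ligase, had 80.9 ± 26.5, 63.1 ± 21.6 and 38.3 ± 25.4 RPKM, with a limma adjusted p of 0.197 in dKO_Flt3ITD against control that became 0.0438 without dKO_Flt3ITD 4. The 25 cell cycle genes had negative fold changes in 23 of 25 cases in dKO_Flt3ITD against dKO (median −0.57) and in 22 of 25 against control (median −0.69), and limma called 0. The 31 genes of glucose use had medians of 0.05 and 0.07 in those comparisons. Ccnb1, a mitotic cyclin, had 78.2 ± 11.8, 57.3 ± 21.6 and 31.3 ± 12.6 RPKM, with a limma adjusted p of 0.0797 in dKO_Flt3ITD against control.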

How the data were processed

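Full-length messenger RNA libraries of 100 sorted cells were sequenced, and the authors deposited 1 table of RPKM for 13016 genes in 12 libraries. Alignment and counting tools are listed in the submitters' processing notes, HTSeq 0.5.4p5, TopHat2 2.0.10 and SAMtools 0.1.19, with the build mm10. The sources used here do not give the total they divided by, the choice of genes, the use of read strand or the treatment of reads with several matches. Sample titles gave the genotype and the replicate number. Steps between low RPKM gave the reads behind them, whole to within 0.001, for 99.96% of genes.

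The 10690 genes that reached 1 RPKM in 4 or more libraries were tested on log2(RPKM + 1), a scale that understates changes of low genes. The tool was limma 3.58.1 under R 4.3.3, fitted once to all 12 libraries (9 residual degrees of freedom, trended variance), and p-values were adjusted by Benjamini-Hochberg over all genes, with a threshold of 0.05. "Called", "rose" and "fell" mean past that threshold. Groups did not overlap where every library of one lay above every library of the other. The fit was tested on simulated data.

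The genes, lists, paralogue pairs and tests were chosen with earlier results of these data known. Values in every library are given for called genes, for up to 5 genes of smallest p without overlap per comparison and for the 4 highest. Of each other list, called members are named, or the 1 of smallest p. Hk2, Rpe, Pdk1, Pgam1 and the shares of paralogues were added after their values were seen. Alternatives were pseudocounts of 0.1 and 5, other filters and scalings, no trend, only the 8 libraries compared, the replicate number as a block, voom on the recovered reads, and leaving out libraries. Positions came from GENCODE M21 on GRCm38, shared stretches from its transcripts, and promoter sequences from RefSeq on GRCm38.p6. Descriptive values were computed in Python 3.11.15 (pandas 2.3.3, numpy 2.4.6) and drawn with matplotlib 3.10.9. Of list genes and markers not named in the text, none was called in the 3 comparisons except Ly6d, a marker of the dendritic cell list, which fell in both mutant groups against control. Of the 5 tested genes of that list, 3 had positive and 2 negative fold changes in each comparison with control. Its 10 genes summed to 290 to 718 RPKM in control, 281 to 466 in dKO and 321 to 1922 in dKO_Flt3ITD.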

Additional observations from a re-analysis of the deposited data

Results flagged for a closer look

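Among 120 sets of 4 libraries of 1 gene or share in 1 group, 5 (4.17%) held a library whose gap to its nearest neighbour took up most of the set's range (above the critical value of Dixon's test), and chance alone flags about 5% of such sets. Rpia, the ribose phosphate isomerase, was at 13.988 RPKM in dKO 1, against 2.15 to 3.40 RPKM in the other dKO libraries. That library also held the beta-globin messenger. Tkt, the transketolase, was at 21.432 RPKM in dKO 2, against 58.3 to 63.9 RPKM in the others. The share of Slc16a3 in the RPKM of Slc16a1 and Slc16a3 was 0.83387% in dKO 1 and 0 in the other dKO libraries. With the others at 0, any value above 0 would be flagged, so this flag carries no information. Slc16a3 read 0.09 RPKM in dKO 1 and was not tested. Aldoc, the brain-type aldolase, was at 0.071381 RPKM in dKO_Flt3ITD 3, against 7.91 to 8.93 RPKM in the others. The share of Ldhb in the RPKM of Ldha and Ldhb was 43.512% in dKO_Flt3ITD 2, against 8.18% to 10.3% in the others.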

How the results depend on the processing

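Limma or voom called 0 of the 31 genes in each comparison under every alternative run, and the median fold change of the 31 genes stayed within 0.35 log2 units of its reported value, the SD between libraries. Without 1 library that median ran from −0.18 to 0.28 in dKO against control, −0.15 to 0.17 in dKO_Flt3ITD against dKO and −0.15 to 0.30 in dKO_Flt3ITD against control. Genes without overlap between groups, recounted after seeing the data, went from 1 to 0 of 31 in dKO against control and from 3 to 1 in dKO_Flt3ITD against control when rescaled to the same sum, and stayed at 1 and 3 when rescaled to the same median. The background of calls over all genes moved more. In dKO against control the 109 calls became 64 with no filter, 5 with voom, 45 without control 1, dKO 1 and dKO_Flt3ITD 1 together, and 58 to 95 without 1 library. In dKO_Flt3ITD against dKO the 0 calls became 1 with no filter, with at least 5 RPKM in 4 libraries, with only the 8 libraries compared and without the 3 libraries together, 2 when rescaled to the same sum, 3 when rescaled to the same median or with a pseudocount of 5, and 0 to 6 without 1 library. In dKO_Flt3ITD against control the 160 calls became 91 with no filter, 27 with voom, 105 without the 3 libraries together and 94 to 187 without 1 library. The cause of these moves was not tested. Pgp lost its call in 16 of 19 alternatives, with limma adjusted p from 0.0502 to 0.181 and voom at 0.258. Same-numbered libraries deviated with correlations of −0.147 to 0.126, and 2 of 12 libraries correlated best with their own number. These values show no pairing by number, but with 4 libraries a group they cannot exclude it. The labels do not say whether equal numbers mark anything shared. With the replicate number as a block, 0 of the 31 genes were called in each comparison, all genes gave 85, 0 and 116 calls, and Pgp lost its call at an adjusted p of 0.0515. With 100 cells and 4 libraries a group, most intervals spanned about 2.08 log2 units.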
